A study of Mus musculus with 8 samples.

Results

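The immediate early and AP-1 genes described here are 10 of the 27998 genes counted in single-cell RNA sequencing of mouse mammary epithelium, namely Fos, Fosb, Fosl1, Fosl2, Jun, Junb, Jund, Atf3, Egr1 and Ier2. They were chosen by symbol from what is known of the family, but with earlier results of these data known. Counts of them beside the share of all genes are therefore not an independent comparison. All 10 symbols were found once each. Each gene was followed as the number of unique molecular identifiers (UMIs, 1 per captured transcript) summed over the cells of 1 mouse and 1 cluster and scaled to 1000000 UMIs in that sum (CPM). The question was whether all cell types of a mouse moved together, as handling of a whole gland could make them do, or whether single cell types moved on their own.

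The mice were C57BL/6N females at 4 stages, with 2 mice per stage and 1 library per mouse. Nulliparous mice (NP) were 8 weeks old, gestation mice (G) were at day 14.5, lactation mice (L) were at day 6 and post-involution mice (PI) were at day 11 post natural involution. In all groups the gland was minced, digested with enzymes over several hours and sorted for cells positive for the epithelial surface protein EpCAM after removal of CD31, CD45 and Ter119 positive cells, and no sample was taken without this digestion. By the study's own staging NP1, NP2 and PI2 were in oestrus and PI1 was in dioestrus. By the study's methods, mice of all stages were planned to be taken and handled together, and the labels give no preparation day for single libraries.

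Immediate early genes are transcribed within minutes of a stimulus without new protein synthesis, and their transcripts are short lived. The proteins of the Fos family (Fos, Fosb, Fosl1, Fosl2) cannot pair with themselves and bind DNA as heterodimers with the Jun family (Jun, Junb, Jund), and these dimers are the transcription factor AP-1. Atf3 is a related leucine-zipper factor induced by stress, Egr1 is a zinc-finger factor driven through serum response elements and Ier2 is a small nuclear protein of the same early wave. Growth factor and hormone signalling, mechanical stretch, enzymatic tissue dissociation and involution of the mammary gland are all known to induce members of this group.

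Promoter sequences are shown because cyclic AMP and stress kinase signalling reach several of these genes through short motifs next to their start sites. RefSeq promoters (build GRCm38.p6, 250 bases before to 50 bases after the start) were at hand for 7 of the 10 genes, and those of Egr1, Fosl1 and Ier2 were not. The cyclic AMP response element TGACGTCA stood in 1.79% of 32851 promoters and in 0 of the 7, the AP-1 site known as the TRE in 5.2% and 0 of the 7, and the CArG box bound by serum response factor in 1.63% and 0 of the 7. Sites outside this window were not searched, so these counts do not show that a gene lacks a motif. The half-site TGACG, which the full element and some other motifs contain, stood on either strand in 20.8% of all promoters and in 4 of the 7, those of Fos, Fosb, Junb and Atf3. A gene was counted if any of its promoters held the motif, whereas the percentages are per promoter. The counts and percentages are thus not like measures. The 150 bases before the start of these 4 are given 5′ to 3′ on the strand of the gene, with the half-site in capitals (as CGTCA where it lies on the opposite strand). They are chr12:85473740-85473889 on the plus strand for Fos, and on the minus strand chr7:19310046-19310195 for Fosb, chr8:84978749-84978898 for Junb and chr1:191183334-191183483 for Atf3, the last lying before an internal start within the annotated span of that gene.
Fos: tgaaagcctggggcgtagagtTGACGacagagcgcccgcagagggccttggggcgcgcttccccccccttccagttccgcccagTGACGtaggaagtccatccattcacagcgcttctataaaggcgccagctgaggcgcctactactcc
Fosb: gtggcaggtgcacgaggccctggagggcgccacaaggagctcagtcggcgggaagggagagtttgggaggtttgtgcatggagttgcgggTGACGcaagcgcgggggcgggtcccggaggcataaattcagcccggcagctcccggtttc
Junb: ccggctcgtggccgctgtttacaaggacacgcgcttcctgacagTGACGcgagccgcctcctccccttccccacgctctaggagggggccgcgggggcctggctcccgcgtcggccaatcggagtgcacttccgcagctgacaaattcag
Atf3: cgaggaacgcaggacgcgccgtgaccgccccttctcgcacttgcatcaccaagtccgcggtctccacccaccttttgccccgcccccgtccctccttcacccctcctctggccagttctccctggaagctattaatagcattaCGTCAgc
The half-site began at -129 and -66 from the start in Fos, at -60 in Fosb and at -106 in Junb, and its opposite-strand form began at -7 in Atf3. These matches are letters in a window and no binding was measured.

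On build mm10 the genes lie at chr12:85473890-85477273 (Fos), chr7:19302696-19310051 (Fosb), chr19:5447547-5455946 (Fosl1), chr5:32135801-32157842 (Fosl2), chr4:95049034-95052222 (Jun), chr8:84974484-84978718 (Junb), chr8:70698949-70700616 (Jund), chr1:191170296-191218039 (Atf3), chr18:34859823-34864984 (Egr1) and chr8:84661331-84662852 (Ier2). Fosl1 overlaps Ccdc85b on the opposite strand, Jun overlaps Junos, Junb overlaps Prdx2 and Jund overlaps Gm11175. The sources used here do not say whether counting used strand, so reads of these 4 genes and of their partners may not have been told apart.

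The libraries held between 13785920 and 35711533 UMIs, and 24699 cells lay in the 19 clusters assigned by the authors. Of 25806 barcodes, 791 were shared between libraries and had been marked by the authors, and they were left out. Median UMIs per cell ran from 3770 (L1) to 9514 (NP2), and with 3770 and 4254 the lactation cells were the shallowest. Clusters with at least 20 cells in a mouse gave 51 sums of cluster and mouse. Most clusters hold 1 stage, and the clusters were called on the same counts, so differences in level between clusters are given as descriptions. C1 to C11 are luminal, C12 to C15 basal, C16 and C17 immune, C18 fibroblasts and C19 endothelial by the authors' names, and their markers bore this out with mean summed levels of 45369 CPM for 5 immune genes in C17, 28079 CPM for 5 fibroblast genes in C18 and 2908 CPM for 4 endothelial genes in C19. C15, named Procr+ basal cells, also held pericyte markers at 5660 CPM. Non-epithelial cells that passed the sort need not stand for those of the intact gland.

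Fos, the partner that AP-1 dimers gain on stimulation, was at its lowest in nulliparous stroma and basal cells and at its highest in lactation. In C12, the nulliparous basal cluster, Fos stood at 560.3 CPM in mouse 1 and 449.3 in mouse 2, and in NP fibroblasts (C18, 24 and 56 cells) at 180.5 and 549.6. The nulliparous luminal clusters stood higher, with 2072 and 2238 in hormone-sensing progenitors (C2), 1982 and 2076 in differentiated hormone-sensing cells (C4) and 2442 and 1841 in luminal progenitors (C6). In both nulliparous mice every luminal cluster lay above C12. In lactation Fos reached 8879 and 6663 in basal cells (C14), 6620 and 4984 in C15, 6689 and 4136 in alveolar progenitors (C11), 4361 and 6489 in fibroblasts, 3748 and 3391 in endothelial cells, and 4747 and 1740 in immune cells. Differentiated alveolar cells (C9), the milk-producing cells, were lowest of the lactation epithelium at 2329 and 2028. Of the 14 lactation sums, 11 lay above all 37 sums of the other stages, whose highest was 3210 in G fibroblasts. From its lowest mean (365.1 CPM in NP fibroblasts) to its highest (7771 CPM in C14) Fos spanned 21.28-fold.

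Fosb, a paralog of Fos with a slower time course, followed a similar order but separated the stages less. Its lactation sums ran from 334.1 to 1773 CPM with a median of 847.5, against 128.1 to 1914 with a median of 476.5 elsewhere. None of the 14 lactation sums lay above all others, and the highest single sum was PI2 fibroblasts at 1914 CPM. Fosb was lowest in C12 of NP, at 153 and 128.1 CPM.

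**Figure D1:**
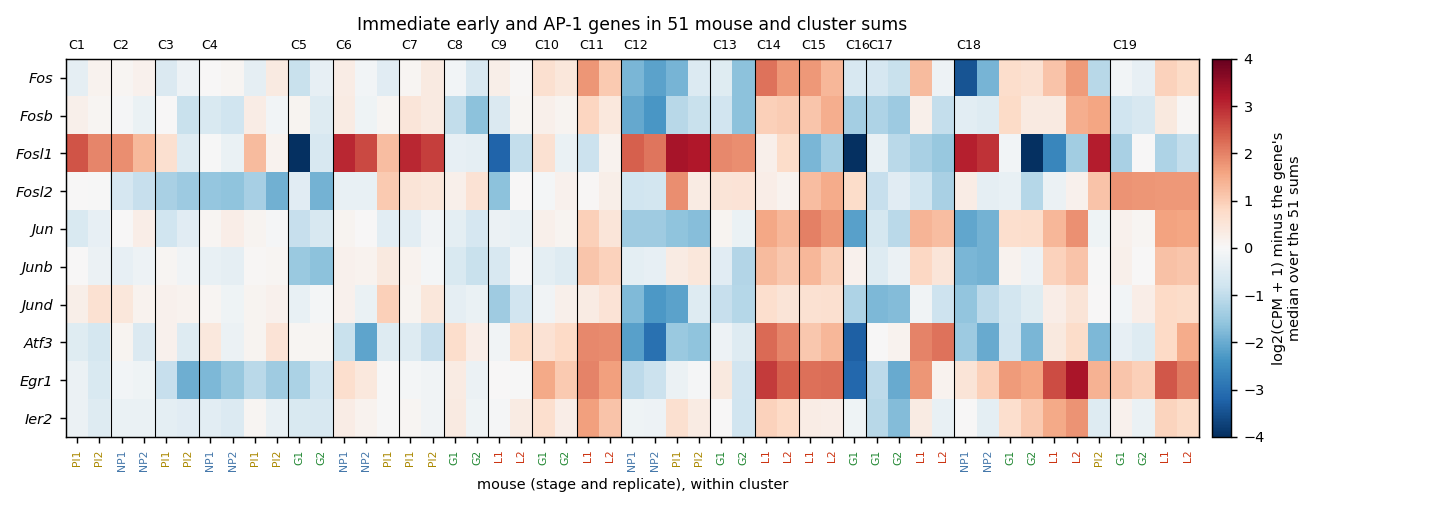
Levels of the 10 genes (rows) in the 51 sums of cluster and mouse (columns, grouped by cluster, 1 column per mouse, with labels coloured by stage), as log2(CPM + 1) minus the median of that gene over the 51 sums. Of the 14 lactation columns, 13 are above the median for Fos and for Atf3, 12 for Jun and for Egr1 and 3 for Fosl1, and both NP basal columns (C12) are below it for every gene but Fosl1.

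The Jun family, which pairs with Fos but can also bind DNA alone, did not move as 1 block. Jun stood at 594.7 and 601.6 CPM in NP basal cells, at 1604 and 1931 in C2, and in lactation at 4721 and 4060 in C14, 6452 and 5406 in C15, 4848 and 4770 in endothelial cells and 1361 and 1315 in C9. As for Fos, 11 of 14 lactation sums lay above the highest of the other stages (2626 CPM, G fibroblasts). Junb, often an antagonist of Jun at shared sites, lay above every other sum in 12 of 14 lactation sums, the exceptions being both mice of C9 at 752.9 and 1128 CPM. Unlike Fos and Jun, Junb was not low in NP basal cells, where it stood at 884.9 and 935.6 CPM beside 947.5 and 911.4 in C4.

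Jund, the Jun protein that many resting cells express constitutively, had no lactation sum above all others. It was 4278 and 4108 CPM in lactation endothelial cells and 3913 and 3514 in C14, but 4805 in the 22 cells of C6 in PI1 and 2903 and 3744 in C1 of PI. Its lowest mean was that of NP basal cells (722.8 and 501.4), and C9 fell within the lower part of its range at 908.4 and 1449. Within NP the luminal clusters stood between 2062 and 3332 CPM, above C12 in both mice.

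Atf3, a repressor induced by stress, stood at 178.9 and 100.2 CPM in NP basal cells and at 3900 and 3110 in lactation basal cells. Lactation immune cells (3173 and 3664) and alveolar progenitors (3032 and 2988) stood near these, whereas lactation fibroblasts (1066 and 1331) were lower, so the order of cell types for Atf3 was not that for Fos. Egr1 was instead highest in fibroblasts, with 1806 and 2857 CPM in lactation fibroblasts, 2050 and 1578 in C14, 1663 and 1254 in endothelial cells, and 1002 and 329.7 in immune cells. Within NP, Egr1 was lowest in differentiated hormone-sensing cells (84.07 and 102.3) and higher in luminal progenitors (473.8 and 394.8). Each of Atf3 and Egr1 had 10 of 14 lactation sums above all others. Ier2 changed least of these 3, with 4 of 14 lactation sums above all others and a range from 111.9 CPM in G2 immune cells to 1300 in L2 fibroblasts.

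Fosl1 and Fosl2 did not share the lactation pattern. Fosl1 (Fra-1), a Fos protein linked to migration and epithelial plasticity, was highest in PI basal cells at 251 and 232.5 CPM and in NP fibroblasts at 216.6 and 187.4, and luminal progenitors held 205.8 and 158 in NP and 206.7 and 173.1 in PI. All 14 lactation sums of Fosl1 lay between 1.747 and 41.76 CPM, below the median of 59.32 over the other 37. Gestation means outside basal cells were also low, from 7.741 CPM in C5 to 29.11 in C10. The low level of Fosl1 was thus not particular to lactation. In G2 fibroblasts 0 Fosl1 UMIs were counted, which allows a level of up to 19.94 CPM. Fosl2 (Fra-2) stood near 300 CPM in endothelial cells of both stages that had them, at 309.1 and 303.8 in G and 300.8 and 298.4 in L, and was lowest in differentiated hormone-sensing cells (29.52 and 28.4 in C4 of NP). Over the 24 pairs of cluster and stage, of which 7 were lactation, 8 of the 10 genes had their highest mean in lactation, the exceptions being Fosl1 and Fosl2. Neither this count nor the counts of lactation sums above all others were made over all genes. They are therefore not read as particular to these genes.

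**Figure D2:**
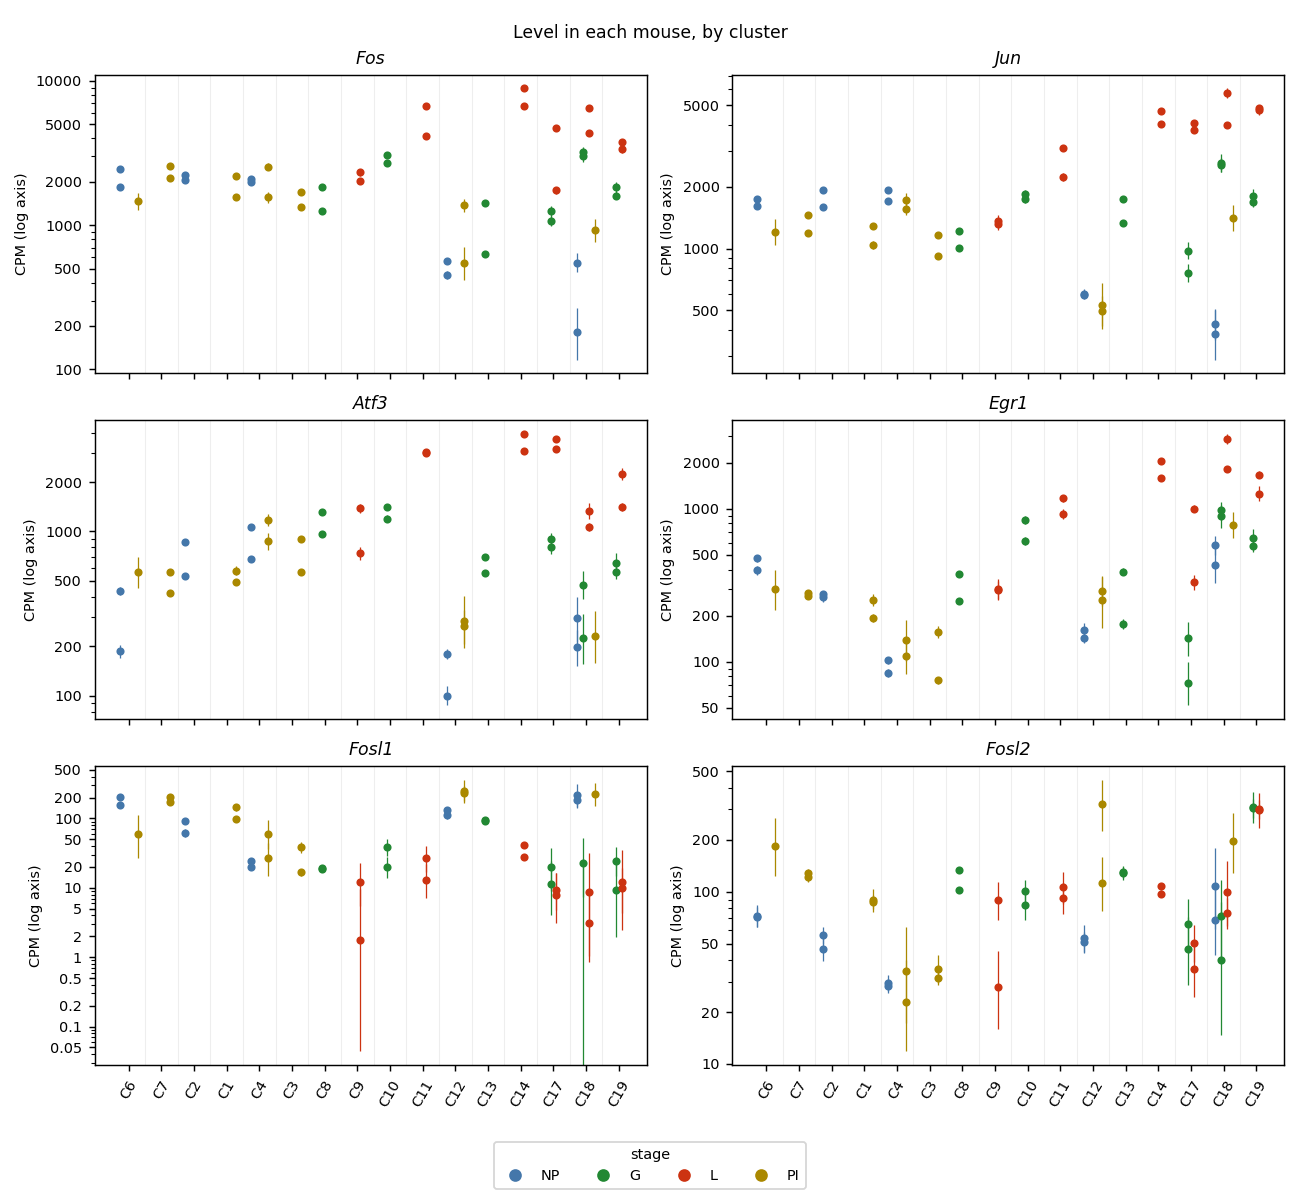
CPM (log axis) of Fos, Jun, Atf3, Egr1, Fosl1 and Fosl2 in each cluster, 1 point per mouse coloured by stage, with 95% Poisson intervals that cover counting error only. Sums with 0 UMIs, such as Fosl1 in G2 fibroblasts, are not drawn on the log axis. Fos, Jun, Atf3 and Egr1 are highest in lactation clusters, and C9 lies below the other lactation epithelial clusters for Fos and Jun. Fosl1 is low in lactation clusters and in gestation clusters other than basal C13.

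Stages were compared within a cell type by joining the matching clusters of each stage per mouse, using edgeR's quasi-likelihood test on the summed UMIs with Benjamini-Hochberg adjustment over all genes tested and a threshold of 0.05. With 2 mice against 2, an exact permutation test of a single gene cannot give a two-sided p below 0.333, so every call rests on the spread shared across genes. Whether the mice of 2 stages overlap is given below as a description. It was not counted over all genes and is not further support for a call. A log2 fold change from this fit is relative to the TMM scaling of the libraries, and is followed by its standard error (SE).

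From NP to gestation, 7 of the 10 genes rose in basal cells, where 24.3% of the 11086 genes tested rose, and none fell. Atf3 rose from 178.9 and 99.69 CPM to 697.9 and 553.2, a log2 fold change of 2.24 ± 0.19 (SE) with an adjusted p of 2.34e-07. Jun rose from 594.7 and 604.1 to 1753 and 1321, by 1.45 ± 0.14 (adjusted p = 1.01e-06), and Fosl2 from 51.24 and 53.72 to 128 and 130.8, by 1.40 ± 0.14 (adjusted p = 8.68e-07). The mice of the 2 stages did not overlap for any of the 7, a count not made over all genes. The gestation mice differed from each other for Fos (1423 and 626.4) and Egr1 (392.6 and 173). Fos rose by 1.11 ± 0.25 (adjusted p = 0.00171), Fosb by 1.12 (adjusted p = 0.000365), Jund by 1.07 (adjusted p = 3.09e-05) and Egr1 by 0.99 (adjusted p = 0.00428). Fosl1 (131.9 and 110.6 against 94.57 and 90.67), Junb (884.9 and 935 against 860.9 and 514.4) and Ier2 (334.9 and 325 against 377.5 and 212.5) did not pass the test. The 4 luminal markers, Krt8, Krt18, Krt19 and Epcam, summed to 5815 and 3919 CPM in C12 of NP and to 1253 and 1356 in C13 of G, while the 4 basal markers rose from 9440 and 8954 to 18029 and 14279, and the part of these differences in the result was not tested.

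From gestation to lactation, 8 genes rose again in basal cells and 1 fell, where 24.2% of 12720 genes rose and 24% fell. Fos rose from 1423 and 626.4 CPM to 8875 and 6662, a log2 fold change of 3.03 ± 0.33 (8.19-fold, adjusted p = 0.000193). Egr1 rose from 392.6 and 173 to 2049 and 1578 (2.79 ± 0.33, adjusted p = 0.000269) and Atf3 from 697.9 and 553.2 to 3898 and 3110 (2.60 ± 0.15, adjusted p = 1.02e-05). For each of the 8 genes both lactation mice lay above both gestation mice, which was not counted over all genes. Fosb rose by 2.25, Junb by 2.05, Jund by 1.73, Jun by 1.63 and Ier2 by 1.32, with adjusted p from 1.59e-05 (Jund) to 0.00177 (Ier2). Fosl1 fell, from 94.57 and 90.67 CPM to 28.19 and 41.82, by a log2 fold change of -1.29 ± 0.19 (adjusted p = 0.000911). Fosl2 stood at 128 and 130.8 against 107.5 and 97.53 and did not pass the test (adjusted p = 0.151). Lactation basal cells were shallow, with medians of 3701 and 4148 UMIs per cell in C14. When the cells of a mouse were split at their median UMI count, Fos was 7817 CPM in the shallow and 9321 in the deep part of L1, 5593 and 7095 in L2, 1303 and 1486 in G1, and 577.2 and 651 in G2. Both parts of each lactation mouse lay above both parts of each gestation mouse.

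Among alveolar progenitors (C10 in G, C11 in L), 8 genes rose, where 15.7% of 8446 genes rose. Junb rose from 881.4 and 813.5 CPM to 2424 and 2170 (log2 fold change 1.72 ± 0.16, adjusted p = 6.97e-05) and Atf3 from 1199 and 1402 to 2960 and 2934 (1.46 ± 0.16, adjusted p = 0.000196). Fos rose from 3066 and 2685 to 6554 and 4106 (1.18 ± 0.23, adjusted p = 0.00475). The 2 stages did not overlap for these 3 genes. Ier2 rose by 1.21, Jun by 0.84, Egr1 by 0.78, Fosb by 0.77 and Jund by 0.67, with adjusted p from 0.00287 (Ier2) to 0.0205 (Jund). Fosl1 and Fosl2 did not pass the test and their mice overlapped. Basal RNA differed between these clusters, since the 4 basal markers summed to 127.8 and 197.1 CPM in C10 but 4666 and 3345 in C11, and none of them was at 0. Acta2, a smooth muscle actin that marks basal cells, stood in C11 at 13.8% and 10.7% of its level in C14. If Fos came along with Acta2 in the ratio of C14, it would make up 1222 of 6689 CPM in L1 and 713 of 4136 in L2. That ratio is assumed and not measured, and the part of basal RNA in the result was not tested. Without gestation mouse 2 the count was 5, with Fosb, Jun and Egr1 past the test no longer.

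In differentiated alveolar cells (C8 in G, C9 in L) 6 genes rose, where 9.54% of 11860 genes rose, and the size of the rise depended on how milk transcripts were treated. The 8 milk protein genes took 44.8% and 41.7% of all UMIs in C9 and 9.67% and 5.74% in C8. In plain CPM Fos stood at 1839 and 1262 in G and at 2346 and 2022 in L, whereas with milk genes left out of the total it stood at 2036 and 1339 against 4215 and 3480. The test, whose TMM scaling allows for such dominant genes, gave log2 fold changes of 1.38 ± 0.24 for Fos (adjusted p = 0.00142), 1.98 ± 0.28 for Fosb (adjusted p = 0.00033), 1.17 for Jun, 1.36 for Junb, 0.96 for Ier2 and 0.87 for Egr1 (adjusted p = 0.016). For Egr1 the plain CPM of the stages overlapped (375.2 and 250.1 in G, 320.3 and 295.3 in L), as did those of Ier2, so their rise exists only relative to the other non-milk transcripts. Atf3 (0.80, adjusted p = 0.0723) and Jund (0.18, adjusted p = 0.645) did not pass, and Jund was lower in plain CPM, at 926.4 and 1450 against 1898 and 2045. The median of all genes was -0.14 here, and -0.36 with milk genes out and no TMM, where the same comparison gave 1.19 for Fos. The 4 basal markers summed to 112.4 and 108 CPM in C8 but 2021 and 884.1 in C9. Acta2 in C9 stood at 6.23% and 2.73% of its level in C14, and Fos carried in that ratio would be 553.2 of 2329 CPM in L1 and 181.7 of 2028 in L2, a ratio that is assumed and not measured. The part of basal RNA in the result was not tested. The joined lactation sums rest on 43 and 48 cells, of which 42 and 47 were in C9.

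The non-epithelial clusters C17, C18 and C19 were compared between G and L after the levels had been seen, and are given for that reason as an addition. In fibroblasts 7 genes rose, where 7.43% of 3434 genes rose, and in endothelial cells 8 rose, where 6.91% of 6596 did. Fos rose in fibroblasts from 3210 and 2998 CPM to 4361 and 6489 (log2 fold change 0.95 ± 0.18, adjusted p = 0.00547) and in endothelial cells from 1826 and 1595 to 3748 and 3391 (0.99 ± 0.16, adjusted p = 0.00139). Jun rose in endothelial cells from 1801 and 1680 to 4848 and 4770 (1.39 ± 0.15, adjusted p = 0.000119). Both lactation mice lay above both gestation mice in each of these 3 cases. In immune cells 6 genes rose, where 1.84% of 6305 genes rose, among them Jun from 976.5 and 761 to 4104 and 3786 (2.38 ± 0.19, adjusted p = 0.00796) and Atf3 from 806 and 895.3 to 3173 and 3664 (2.21 ± 0.21, adjusted p = 0.00853), while Fos went from 1247 and 1074 to 4747 and 1740 and did not pass (adjusted p = 0.0771). With gestation mouse 1 or 2 left out, edgeR called 0 in immune cells, where 8 and 7 had an unadjusted p below 0.05. Acta2 in lactation immune cells stood at 28.4% (L1) and 7.78% (L2) of its level in C14. Fos carried in that ratio would be 2523 of 4747 CPM and 518 of 1740, and Jun 1342 of 4104 and 315.7 of 3786, under the same assumption. In fibroblasts and endothelial cells the same share was 4.58% and 2.68%, and 4.83% and 4.23%.

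Over the 6 cell types compared between G and L, Jun, Junb, Egr1 and Ier2 rose in all 6. Fos, Jund and Atf3 rose in 5 of 6 and Fosb in 4 of 6. Fosl2 rose in 0 of 6, also at an unadjusted p below 0.05, and Fosl1 rose in 0 and fell in 1 of the 3 in which it had enough UMIs to be tested. In each of these 6 cell types at least 6 of the 10 genes thus passed the test as risen, with the plain CPM of Egr1 and Ier2 overlapping between stages in differentiated alveolar cells. These comparisons share the same 2 gestation and 2 lactation mice and are not independent of each other. How many of all genes rose in as many cell types was not counted. The recurrence over cell types is therefore not read as particular to these genes.

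**Figure D3:**
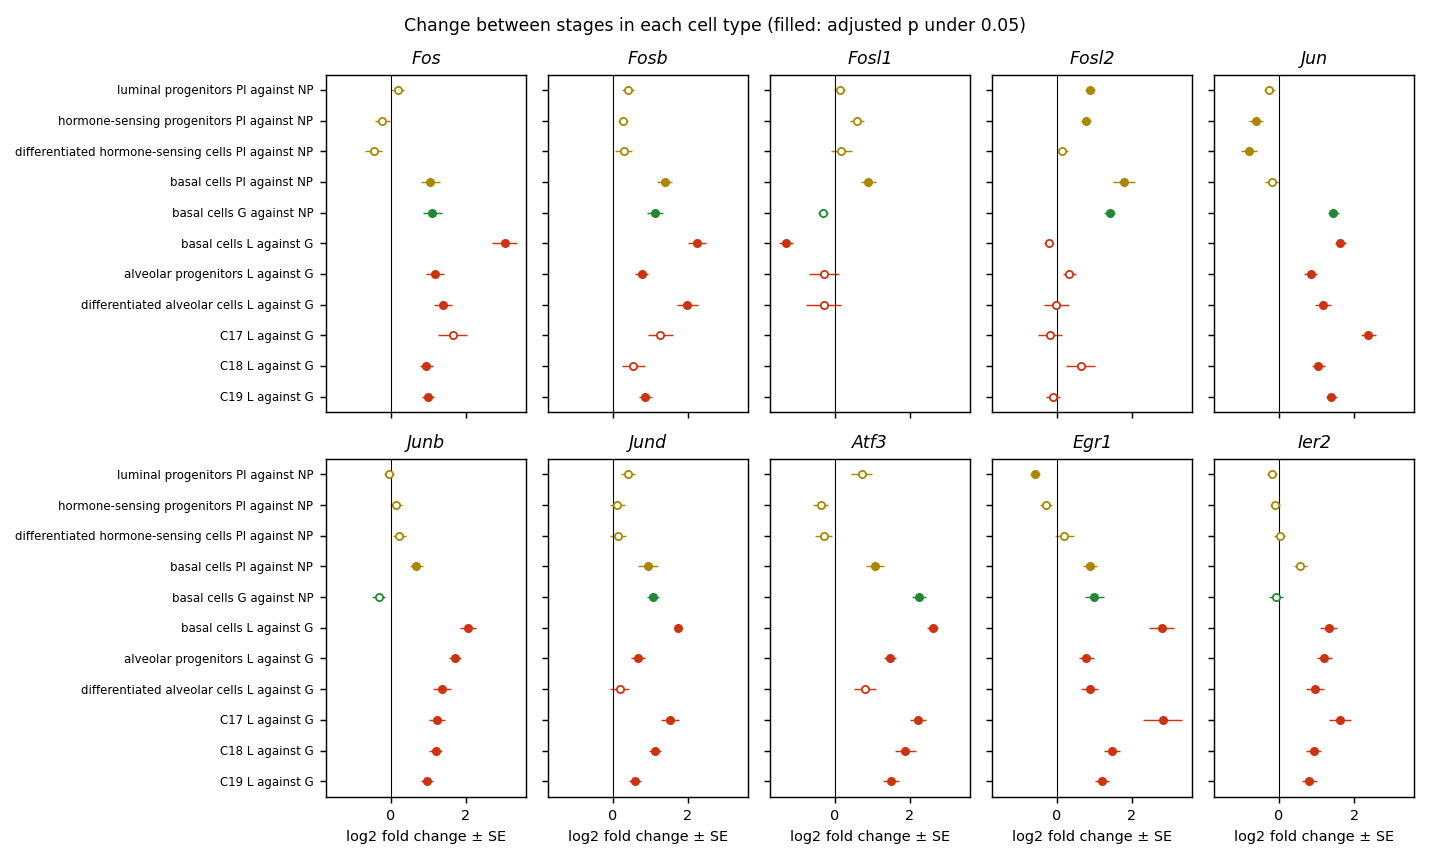
Log2 fold change ± SE of the 10 genes (panels) in 11 comparisons of stages within a cell type (rows), coloured by the later stage, with filled points where the adjusted p was below 0.05. Lactation against gestation is to the right of 0 for most genes and cell types, with basal cells farthest for Fos and Atf3, and for Egr1 at 2.79 beside 2.81 in C17, while Fosl1 in basal cells is to the left and PI against NP lies between -0.80 and 0.87 in luminal cells.

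Whether the cell types moved by unlike amounts was tested directly, by an interaction of cell type and stage with the mouse as a term. Among basal cells, alveolar progenitors and differentiated alveolar cells the lactation change differed for 6 of the 10 genes, where 27% of 11664 genes differed. The change in basal cells exceeded that in alveolar progenitors by 2.05 ± 0.25 (log2) for Fos, by 2.16 ± 0.22 for Egr1, by 1.61 ± 0.28 for Fosb, by 1.23 ± 0.29 for Atf3, by 1.13 ± 0.24 for Jund and by 0.869 ± 0.205 for Jun, each with an adjusted p of its own between 6.77e-08 (Egr1) and 0.00304 (Jun). Junb (adjusted p = 0.0766), Fosl1 (0.0588), Fosl2 (0.367) and Ier2 (0.451) did not pass this test. Fosb also rose more in differentiated alveolar cells than in progenitors, by 1.32 ± 0.28 (adjusted p = 0.00637). With the 3 non-epithelial clusters added, 7 of 10 differed, where 28.8% of 11062 genes did, and in that fit immune cells exceeded alveolar progenitors by 2.04 ± 0.425 for Egr1 (adjusted p = 0.00333) and by 1.59 ± 0.25 for Jun (adjusted p = 0.000201).

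The comparison of PI with NP gave few changes in luminal cells. The NP mice were 8 weeks old, and no age is given for the PI mice, which had been through gestation, lactation and weaning. A past pregnancy and age cannot be told apart here. Cycle stage differed too, since PI1 was in dioestrus and NP1, NP2 and PI2 were in oestrus. In luminal progenitors (C6 and C7) 1 gene rose, where 13.9% of 10766 genes rose, and 1 fell, where 13% fell. Fosl2 rose from 71.52 and 72.86 CPM to 128.7 and 121.4 (log2 fold change 0.87 ± 0.13, adjusted p = 0.000529), and Egr1 fell from 473.8 and 399.9 to 280.7 and 268.1 (-0.59 ± 0.13, adjusted p = 0.00627). Fos stood at 2442 and 1886 in NP and 2099 and 2555 in PI, and the stages overlapped (0.19 ± 0.17, adjusted p = 0.46). In hormone-sensing progenitors (C1 and C2) Fosl2 rose from 55.62 and 46.52 to 90.22 and 87.2 (0.78 ± 0.14, adjusted p = 0.00265), where 9.58% of 10692 genes rose. Jun fell there, from 1603 and 1931 to 1043 and 1291 (-0.61 ± 0.19, adjusted p = 0.0455), where 7.05% fell, and it also fell in differentiated hormone-sensing cells, from 1701 and 1927 to 990.9 and 1173 (-0.80 ± 0.21, adjusted p = 0.0258), where 6.65% of 11994 genes fell. Without NP mouse 1 the count in hormone-sensing progenitors was 1, and without NP mouse 2 edgeR called 0, with 2 at an unadjusted p below 0.05. The Jun call in differentiated hormone-sensing cells was lost without NP mouse 2 or PI mouse 1, where 2 and 3 genes had an unadjusted p below 0.05, and without PI mouse 2 Fosb, Fosl1 and Egr1 passed beside it, which made 4.

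In basal cells of PI 8 genes rose and none fell, where 4.74% of 8511 genes rose, but only 28 and 59 such cells were present. Fosb rose from 153 and 128.4 CPM to 332.2 and 390.2 (log2 fold change 1.38 ± 0.19, adjusted p = 2.33e-05), Atf3 from 178.9 and 99.69 to 288.5 and 303.9 (1.07 ± 0.23, adjusted p = 0.0049) and Fosl1 from 131.9 and 110.6 to 244.8 and 217.5 (0.89 ± 0.20, adjusted p = 0.00621). These 3 did not overlap between stages. Fosl2 (1.79 ± 0.30), Egr1 (0.88 ± 0.19) and Junb (0.68 ± 0.17) also rose without overlap. Fos (560.3 and 449.3 against 550.8 and 1436) and Jund (722.8 and 500.7 against 577 and 1641) were called as risen although PI1 lay within the NP range. Without PI mouse 2 there were 2 calls, Fosb and Fosl2, and the log2 fold change of Jund was -0.20, without NP mouse 2 there were 2, and without NP mouse 1 there were 5. The 4 luminal markers in C12 summed to 5815 and 3919 CPM in NP and to 2985 and 7775 in PI, so PI2, the mouse high in Fos and Jund, was also the one high in luminal RNA. The part of luminal RNA in that result was not tested.

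The PI against NP change differed between the 4 cell types for 6 of the 10 genes, where 18.5% of 12080 genes differed. Atf3 had the smallest adjusted p, 1.62e-05, since its change was lower by 1.19 ± 0.18 in hormone-sensing progenitors and by 1.11 ± 0.18 in differentiated hormone-sensing cells than in luminal progenitors. In edgeR's test of each type alone Atf3 passed in none of these 3. Its log2 fold change was 0.71 in luminal progenitors (adjusted p = 0.0696), -0.38 in hormone-sensing progenitors (0.207) and -0.30 in differentiated hormone-sensing cells (0.437). Egr1 changed by 1.28 ± 0.29 more in basal cells than in luminal progenitors (adjusted p = 0.00726). Fos, Fosb, Fosl2 and Jun also differed, with adjusted p of 0.00458, 0.0321, 0.00366 and 0.041. Without NP mouse 2 the count was 3.

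The 2 mice of a stage show which genes shifted in every cluster of a gland at once. For each cluster with at least 20 cells in both mice the ratio of mouse 2 to mouse 1 was taken, without a test since each side is 1 mouse. In PI, Fos was higher in PI2 in 5 of 5 clusters, each beyond its 95% counting interval, by a log2 ratio of 0.277 to 1.326 with a median of 0.489. PI2 was in oestrus and PI1 in dioestrus, and the part of cycle stage was not tested. In plain CPM no other of the 10 genes was higher in PI2 throughout, where 8.11% of 5646 genes were, and Fosl1, Fosl2 and Ier2 were lower throughout, where 11.1% were. With TMM scaling Jund was also higher in PI2 in 5 of 5 clusters, and Fosl2 and Ier2 were lower in 4 of 5. In NP, Atf3 was lower in NP2 in 5 of 5 clusters, by a log2 ratio of -1.217 to -0.589 with a median of -0.692, beyond the counting interval in 4. Fosb and Fosl1 were also lower in NP2 throughout, where 14.9% of 5725 genes were, and 0 of the 10 were higher, where 4.75% were. In G and L, over 7 clusters each, 0 of the 10 lay on 1 side throughout in plain CPM (with TMM scaling Fosl1 was higher in L2 in 7 of 7), where 2.23% and 1.38% of 5416 genes were higher and lower in G2, and 1.28% and 3.03% of 5716 genes in L2. Fos was lower in L2 in 6 of 7 clusters (median -0.410) and higher in fibroblasts (0.573).

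**Figure D4:**
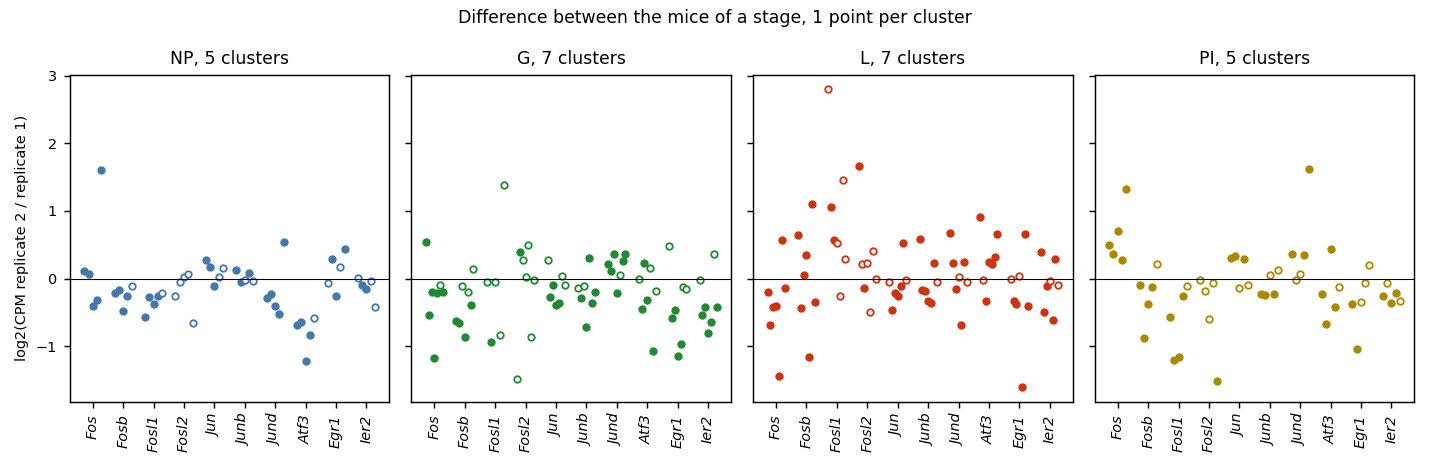
Log2 ratio of CPM of mouse 2 to mouse 1 (vertical axis) for each gene (horizontal axis), stage (panels) and cluster (points), filled where it lies beyond the 95% counting interval. Fos in PI is above 0 in all 5 clusters and Atf3 in NP is below 0 in all 5. In G and L each gene has clusters on both sides of 0 in plain CPM.

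Detection of the genes was also counted per cell. Cells were thinned to 1000 UMIs each so that depth did not set the share detected, and no cell was left out. In NP basal cells 28.6% and 28.7% of cells held a Fos UMI, in G basal cells 49.9% and 38%, and in L basal cells 96.7% and 93%. Cells with at least 5 of the 10 genes made up 7.34% and 5.32% of NP basal cells, 31% and 15.2% of G basal cells, and 89.6% and 84.5% of L basal cells. Most lactation basal cells thus held several of the genes at once. In fibroblasts the same share was 4.17% and 7.14% in NP, 65.8% and 45.2% in G, and 71.5% and 82.7% in L. Alveolar progenitors went from 62.9% and 62.7% in G to 90.8% and 83.1% in L, and NP luminal progenitors stood at 49.5% and 42.4%. Immune cells were lowest in gestation, at 23.3% and 9.3%, and reached 65.6% and 41% in lactation. Fosl1 was found in 12.3% and 12.1% of NP basal cells, 8.95% and 8.42% of G basal cells and 2.37% and 4.57% of L basal cells. No cell type here is known to lack these transcripts, so no share can serve as the level that free RNA would give.

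**Figure D5:**
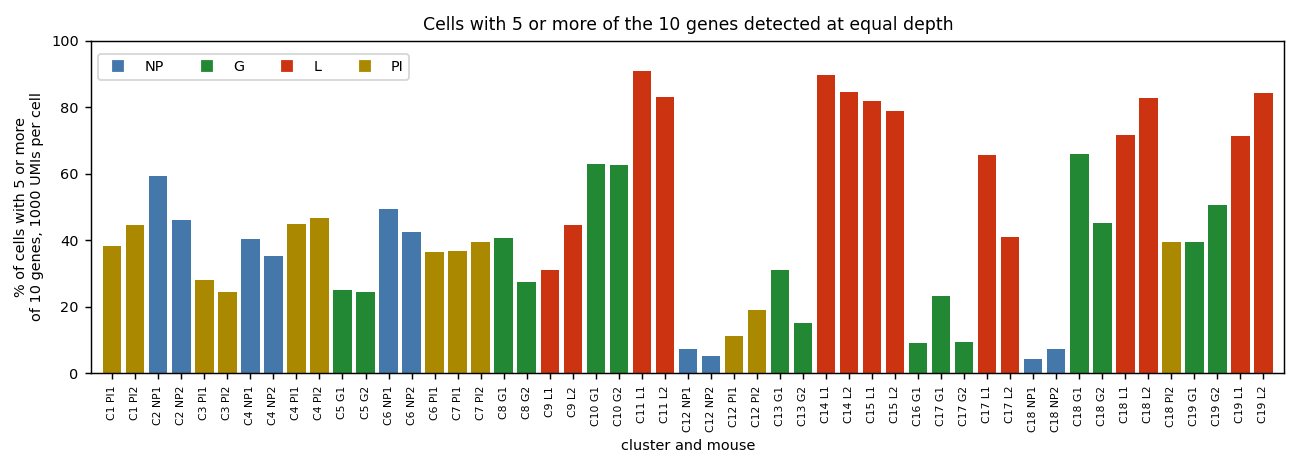
Percent of cells with at least 5 of the 10 genes detected at 1000 UMIs per cell, 1 bar per mouse and cluster, coloured by stage, with the axis from 0. The lactation basal bars (89.6% and 84.5%) stand beside 7.34% and 5.32% in NP basal cells and 31% and 15.2% in G basal cells.

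The spread of each gene over cell type, stage and mouse was divided as shares of the sum of squares of log2(CPM + 1), as a description. Over the 3 epithelial types of G and L, stage held 47% of the spread of Fos, 47.2% of Fosb, 60.3% of Junb and 42.3% of Atf3, beside a median of 22.9% over 5319 genes. For Jund the unequal change of cell types held the larger part, 52.1%, with 9.5% for stage. These shares rest on plain CPM, which milk transcripts lower in C9. Jund in differentiated alveolar cells went from 1898 and 2045 CPM in G to 926.4 and 1450 in L, but by a log2 fold change of 0.18 with TMM scaling. The part of milk transcripts in these shares was not tested. Mouse within stage held 15.8% for Fosl2, 11.6% for Ier2, 10.5% for Fosl1, 6.7% for Egr1, 6.54% for Fos and 4.62% for Fosb. It held 3.36% for Jun, 2.74% for Junb, 1.83% for Jund and 1.02% for Atf3, beside a median of 1.71%. Only Atf3 lay below that median. Over the 4 types of NP and PI, cell type held 77.5% of Fos, 81.3% of Jun and 89.3% of Fosl1, and stage held 0.239% of Fos and 25.4% of Fosl2, beside medians of 63.4% and 5.09% over 5673 genes. Junb was the exception there, with 23.7% for cell type and 37.6% for unequal change. Mouse within stage ran there from 1.41% for Jun to 12% for Atf3, beside a median of 3.93%.

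Other genes of the pathway were followed in lists set out by function, also chosen with earlier results of these data known. Of other immediate early genes, 20 of 30 tested rose in basal cells from NP to G and 3 fell, and 16 of 31 rose and 8 fell from G to L. Of all genes, 24.3% rose and 2424 of 11086 fell from NP to G, and 24.2% rose and 24% fell from G to L. The median log2 fold change of this list was 0.73 and then 0.56, beside 0.01 and 0.04 for all genes. From NP to G, Errfi1, an inhibitor of the EGF receptor, rose from 473.1 and 420.2 CPM to 2533 and 2536 (2.59 ± 0.13, adjusted p = 4.58e-10), and from G to L it fell to 768.9 and 696.9 (-1.68 ± 0.10, adjusted p = 1.14e-05). From G to L, Btg2, an antiproliferative gene, rose from 572.2 and 257.2 to 2276 and 1728 (2.38 ± 0.32, adjusted p = 0.000501), and Maff, a small Maf factor, fell from 294 and 270.9 to 91.49 and 107.6 (-1.39 ± 0.13, adjusted p = 9.5e-05). In alveolar progenitors 15 of 29 rose and none fell, where 15.7% of all genes rose. In differentiated alveolar cells 7 rose and 1 fell, where 9.54% of all genes rose. In PI basal cells 17 of 28 rose, where 4.74% of all genes did. Gem, a small GTPase, rose there from 97.78 and 98.33 to 979.2 and 1056 (3.37 ± 0.18, adjusted p = 1.07e-11).

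Among feedback inhibitors of these signals, 13 of 17 rose and 3 fell in basal cells from NP to G, and 7 rose and 5 fell from G to L. Of all genes, 24.3% rose from NP to G, and 24.2% rose and 24% fell from G to L. Socs3, which limits signalling by cytokine receptors, rose from 218.8 and 86.4 CPM to 2447 and 2567 in lactation (4.15 ± 0.36, adjusted p = 6.26e-05), after a fall from 420.7 and 372.4 in NP. Zfp36, which destabilises short-lived mRNAs, rose from 198.4 and 112.9 to 1066 and 906.5, and Dusp1, a phosphatase of MAP kinases, from 296.5 and 210.5 to 1033 and 1030. Dusp4 fell from 22.38 and 24.69 to 2.46 and 2.286. Socs3 also rose in both alveolar types, by 3.93 and 3.65. Of the upstream kinases, SRF and its cofactors, 2 rose and 4 fell of 19 in basal cells from G to L, and of other bZIP factors 4 rose and 3 fell of 14. With 24.2% of all genes risen and 24% fallen there, these counts are not read as a result about the kinases or bZIP factors.

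Genes described as AP-1 targets mostly fell in basal cells. From NP to G, 3 of 12 rose and 7 fell, with a median log2 fold change of -0.93, and from G to L 0 of 12 rose and 7 fell, with a median of -0.99. Of all genes, 24.3% rose and 2424 of 11086 fell from NP to G, and 24.2% rose and 24% fell from G to L. Areg, a ligand of the EGF receptor, fell from 22.64 and 37.03 CPM to 0.8042 and 0.5415 (-5.32 ± 0.34, adjusted p = 1.59e-05), after a fall from 247.7 and 375.6 between NP and G, and Timp1, an inhibitor of metalloproteinases, fell from 19.87 and 20.42 to 2.223 and 1.504. In PI basal cells, where 4.74% of all genes rose, 5 of 11 rose and none fell, led by Il6 from 5.171 and 4.552 to 69.94 and 105.6 (4.24 ± 0.40, adjusted p = 1.69e-07). In luminal progenitors of PI 3 of 11 rose and 4 fell, where 13.9% of all genes rose and 13% fell. Vegfa rose there from 30.78 and 29.39 to 135.8 and 139.2 (2.27 ± 0.14, adjusted p = 1.9e-06). Areg fell from 153.9 and 167.7 to 21.21 and 29.04 (-2.59 ± 0.17, adjusted p = 2.77e-06).

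Heat shock genes, which tissue handling also induces, were followed beside the immediate early genes. Of 15, 8 rose and 1 fell in basal cells from NP to G, and 8 rose and 4 fell from G to L. Of all genes, 24.3% rose from NP to G, and 24.2% rose and 24% fell from G to L. Hspa1a, the inducible HSP70, went from 34.08 and 16.39 CPM in NP to 311.1 and 104.1 in G and 1577 and 1013 in L, rising at both steps (3.04 ± 0.38 and 2.75 ± 0.43, adjusted p = 1.15e-05 and 0.0011). From G to L, 10 rose and 1 fell in differentiated alveolar cells, 7 rose and 2 fell in alveolar progenitors, 11 rose in immune cells and 8 in fibroblasts with none fallen, and 5 rose and 2 fell in endothelial cells. Of all genes, 9.54% rose in differentiated alveolar cells, 15.7% in alveolar progenitors, 1.84% in immune cells, 7.43% in fibroblasts and 6.91% in endothelial cells. In alveolar progenitors it was Hspa5, the chaperone of the endoplasmic reticulum, that led, from 775 and 617.6 to 3009 and 2848 (2.36 ± 0.17, adjusted p = 1.7e-05). The part of dissociation in these values was not tested.

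Genes with the most similar pattern were ranked by Pearson's r of log2(CPM + 1) over the 51 sums among 5954 genes, as a description in which sums of 1 library share depth and handling. The genes closest to Fos were Btg2 (0.818), Hspa1a (0.792) and Zfp36 (0.779), and among the members Jun (0.855). Zfp36 was also the closest to Jun (0.822) and Junb (0.780), and Btg2 was the closest to Atf3 (0.751). Egr1 was closest to Cryab (0.842), a small heat shock protein of muscle-like cells, and Ier2 was its closest member (0.771). The genes closest to Fosl1 were Maff (0.849), Xpo6 (0.809) and Met (0.799), the last being the receptor of hepatocyte growth factor, and Fosl1 had a negative r with Fos (-0.407) and Jun (-0.348). Fosl2 was closest to Tob2 (0.812) and had an r of 0.060 with Fos. Fosb was closest to Gadd45b (0.641), Jund to Sorbs2 (0.729) and Ier2 to Copz2 (0.642).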

How the data were processed

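Cells of 8 libraries (2 mice per stage) were sequenced by droplet single-cell RNA sequencing. The authors aligned reads to mm10 with STAR within their processing pipeline, called cells, removed shared barcodes, and deposited UMI counts per gene and cell together with the cluster of each cell. The deposited cell table also gives the mitochondrial share of each cell as a fraction, used here only for the depth summary and not for any test. Whether counting used strand is not given in the sources used here.

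Cells that passed the authors' filters and lay in C1 to C19 were used, and no further doublet caller was run. Counts were summed per mouse and cluster (at least 20 cells) or per mouse and joined cell type, and CPM was taken over all genes of the sum. Tests used edgeR 4.0.16 in R 4.3.3 (filterByExpr, TMM, glmQLFit and glmQLFTest) with Benjamini-Hochberg adjustment at 0.05. Mice are the replicates. The interaction fits carried mouse as a term. The scripts were tested on simulated data. Alternatives were RLE size factors, DESeq2 1.42.0, no filter on low counts, equal depth, main clusters alone, milk genes left out, glmTreat with a log2 fold change of 1 at 0.01, a replicate block and leaving out each mouse. Poisson and binomial intervals cover counting error at 95% only. All 10 genes were followed in every comparison, but not all of them are named in each. From each list at most the 3 largest rises and falls past the test are named. For each member the 3 most similar genes with a mean of 20 CPM or more were ranked. The members and the lists were chosen with earlier results of these data known. Gene positions and promoter sequences are those of build GRCm38.p6.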

Additional observations from a re-analysis of the deposited data

Results flagged for a closer look

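The PI against NP change differed between the 4 cell types by the interaction test of edgeR for Fos (adjusted p = 0.00458), Fosb (0.0321), Fosl2 (0.00366), Jun (0.041), Atf3 (1.62e-05) and Egr1 (0.00785). The L against G change differed between the 3 epithelial cell types for Fos (adjusted p = 1.11e-06), Fosb (0.000154), Jun (0.00737), Jund (4.66e-05), Atf3 (9.92e-05) and Egr1 (4.03e-08). What drew attention in each case is a difference in change between cell types of the same mice. In PI the change of Atf3 was lower in hormone-sensing cells than in luminal progenitors (-1.19 and -1.11, log2), without a change past the test in any of these types alone. In lactation the excess over alveolar progenitors was in basal cells (2.05 for Fos and 2.16 for Egr1).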

How the results depend on the processing

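Counts of members past the test are given first, then counts of all genes. The basal change from G to L had 9 calls under RLE size factors, DESeq2, no filter, equal depth, main clusters and the replicate block, 10 with milk genes left out and no TMM (Fosl2 then passed as lower), and 7 under glmTreat (log2 fold change over 1 at 0.01). Under glmTreat the counts in luminal progenitors (2), hormone-sensing progenitors (2), differentiated hormone-sensing cells (1), PI basal cells (8) and differentiated alveolar cells (6) became 0 (with 0, 0, 0, 2 and 3 at an unadjusted p below 0.05), and those in G basal cells (7) and alveolar progenitors (8) became 1, with both the fold threshold and the false discovery rate stricter than in the reported test. Luminal progenitors gave 5 with no filter on low counts and 4 without PI replicate 2. PI basal cells gave 5 with DESeq2, 0 with no filter (where 7 had an unadjusted p below 0.05) and 3 at equal depth, so that result depends on the method as well as on single mice. The PI against NP differences between cell types (6) became 3 at equal depth. Over alternatives, 1058 member values kept direction and side of the threshold, 44 gained the threshold, 126 lost it and 1 reversed, Jund in PI basal cells (0.93), which gave -0.20 without PI replicate 2 and 1.41 without PI replicate 1. The number of genes with their highest share of cells in lactation was 7 thinned and 3 not thinned. Among these 3 was Fos, which without thinning was tied at 100% in C11 of L and C2 of NP. Lactation cells were the shallowest, and the part of depth in this difference was not tested. Where a cause is not named it was not tested.

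Leaving out each mouse in turn gave 2 to 4 calls in luminal progenitors, 0 to 3 in hormone-sensing progenitors, 0 to 4 in differentiated hormone-sensing cells, 2 to 8 in PI basal cells, 7 to 8 in G basal cells, 9 to 9 in L basal cells, 5 to 8 in alveolar progenitors, 4 to 7 in differentiated alveolar cells, 0 to 8 in C17, 6 to 8 in C18, 6 to 8 in C19, and 3 to 8 and 4 to 9 in the PI and L interaction tests. A left-out mouse leaves 1 mouse in an arm, assumed to vary like the others. The replicate numbers are labels with no shared animal, litter or day stated, and the replicate block gave 4 calls in luminal progenitors, 3 and 1 in the hormone-sensing types, 8 in PI basal, 8 in G basal, 9 in L basal, 8 in alveolar progenitors and 7 in differentiated alveolar cells.

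Of all genes, 2892 were called in luminal progenitors (DESeq2 1590, glmTreat 231), 1778 in hormone-sensing progenitors (DESeq2 823, glmTreat 127), 632 in PI basal cells (DESeq2 385, no filter 18, equal depth 129, glmTreat 36), 5114 in G basal cells (DESeq2 3098, glmTreat 611), 2368 in alveolar progenitors (DESeq2 1144, glmTreat 352), 2219 in differentiated alveolar cells (equal depth 1193, glmTreat 342), 2238 in the PI interaction (equal depth 118) and 3148 in the L interaction (equal depth 1116). glmTreat called 121 in differentiated hormone-sensing cells and 760 in L basal cells. In C17 the count was 894 with no filter and 724 with the replicate block. In C18 and C19 it was 205 and 276 with DESeq2. Leaving milk genes out with no TMM shifted the median of all genes by up to -0.21 (differentiated alveolar cells). Depth limits Fosl1 most, which had too few UMIs to be tested in C17 to C19.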
